A study of Mus musculus with 8 samples.

Results

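MicroRNA genes were examined as the H3K9ac regions that the deposited table names for them. Their gene name in that table was Mir followed by a digit, or began with Mirlet. The microRNA need not be the nearest gene, as some of these regions cover the start of another gene. There were 152 such regions of 11251 in all (1.35%), under 136 microRNA names. The libraries came from wild-type C57Bl/6 mice, from epithelial cells of the end of the ileum, with 3 H3K9ac libraries after 150 mM butyrate for 7 days and 3 after vehicle. Butyrate is a short-chain fatty acid of gut bacteria that inhibits histone deacetylases, and H3K9ac, the acetylation of histone H3 at lysine 9, marks active promoters and enhancers. The labels give no age or sex of the mice, no route of dosing and no content of the vehicle, and 1 input library per treatment was not analysed here. The study compared histone acetylation between butyrate and vehicle mice.

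The libraries held 1255251 to 1828591 reads in regions, of which 13029 to 18748 (1.01% to 1.04%) fell in regions named for microRNAs. The median microRNA region had 22 to 35 reads per library, against 82 to 120 for the median of all regions. Levels are given as RPKM, the reads per kilobase of region length, scaled to an effective library size. Since all 6 libraries were scaled to nearly equal sums (35554 to 35694 RPKM over all regions), a change shared by all regions could not be seen, and each difference below is relative to the other regions. Whether the libraries of a group were from separate mice is not stated, so p-values measure their spread alone, which may be technical. Of 15 epithelial marker genes, 14 had a region, and their summed level was 66.7 to 72.6 RPKM with butyrate and 68.4 to 73.4 RPKM with vehicle. Of 10 leukocyte markers only Ptprc had a region (0.558 to 1.35 RPKM with butyrate and 0.672 to 0.930 RPKM with vehicle). None of 8 fibroblast and smooth muscle markers, 4 endothelial markers and 4 neuronal and glial markers had one within 5 kb of its start. Fewer cells of a type and less acetylation per cell cannot be told apart in such bulk samples.

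MicroRNAs are short RNAs cut from hairpins in longer transcripts, first by Drosha with its partner Dgcr8 in the nucleus and then by Dicer1 in the cytoplasm. They guide Argonaute proteins to messenger RNAs, mainly through pairing of the seed, a run of bases near the 5′ end, and the paired messages are repressed. Many hairpins lie in introns or exons of host genes and share their promoter, while others have their own long primary transcript, and in the gut epithelium the miR-192, miR-194 and miR-215 group and the miR-200 family are well-known members of the second kind.

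Of the 136 names, 123 matched the RefSeq table of mature sequences (build GRCm38.p6). The 15 sequences shown here, written 5′ to 3′ with the seed (bases 2 to 8) in capitals, belong to the epithelial, let-7 and called regions described below, and they carry 11 distinct seeds.
miR-192-5p: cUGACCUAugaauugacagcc
miR-215-5p: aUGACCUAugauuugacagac
miR-194-5p: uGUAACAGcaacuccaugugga
miR-200c-3p: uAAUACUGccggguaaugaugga
miR-429-3p: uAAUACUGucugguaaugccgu
miR-141-3p: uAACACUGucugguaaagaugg
miR-21a-5p: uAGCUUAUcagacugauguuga
miR-802-5p: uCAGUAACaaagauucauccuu
let-7b-5p: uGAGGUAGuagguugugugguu
let-7g-5p: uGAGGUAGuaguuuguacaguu
let-7i-5p: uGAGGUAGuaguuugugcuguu
miR-181a-5p: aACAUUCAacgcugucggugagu
miR-5119: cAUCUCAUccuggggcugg
miR-1941-5p: aGGGAGAUgcugguacagaggcuu
miR-1941-3p: cAUCUUAGcaguaucucccau
miR-192-5p and miR-215-5p shared their seed although their hairpins lie on different chromosomes. Counted from 1 at the 5′ end, they differed by C1A, A12U and C20A, the base of miR-192-5p being given before the position. miR-200c-3p and miR-429-3p also shared a seed. miR-141-3p, whose hairpin lies beside that of miR-200c, differed from miR-200c-3p inside the seed by U4C. The 3 let-7 members had identical seeds. Over all names in the table, 192 mature microRNAs carried 185 distinct seeds, so that few of the regions were tied to each other by seed.

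Most of the regions did not contain the microRNA whose name they carry. By RefSeq positions 59 of the 152 regions contained the hairpin they were named for, 87 did not, and 6 had no hairpin of their name in that table. The median distance from region to microRNA start was 814 bp, with 116 regions within 5 kb, 36 farther away and 8 beyond 50 kb. In all, 112 regions lay in or over a protein-coding gene and 40 outside one. RefSeq lists 1228 mouse microRNA genes, of which 86 had their hairpin inside any region of the table. Those hairpins fell in 79 regions, 60 named for a microRNA and 19 named for another gene.

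Of the regions that held their own hairpin, 36 also covered an annotated start of a protein-coding gene. Here and below the start of any annotated transcript counted, so that it need not be the main promoter of the gene. These were named for Mir1893, Mir1894, Mir1901, Mir1938, Mir21a, Mir3058, Mir3064, Mir3077, Mir3103, Mir3109, Mir320, Mir330, Mir423, Mir5119, Mir5122, Mir5131, Mir5132, Mir5133, Mir5619, Mir5620, Mir574, Mir6359, Mir6400, Mir6936, Mir7036b, Mir7045, Mir7075, Mir713, Mir762, Mir7648, Mir7653, Mir7654, Mir7668, Mir7672, Mir7687 and Mir8104. The others covered no such start, and they were named for Mir148b, Mir192, Mir1932, Mir1936, Mir194-1, Mir1946b, Mir1960, Mir200c, Mir22, Mir3965, Mir6349, Mir6364, Mir6516, Mir6913, Mir7013, Mir7228, Mir760, Mir7655, Mir802, Mir8103, Mir8116, Mir8120 and Mirlet7i. The median level was 3.61 RPKM (138 reads) where the own hairpin lay inside and 1.20 RPKM (15.2 reads) where it lay outside. These groups also differed in other ways. A protein-coding start lay inside 61.0% of the former and 16.1% of the latter, and their median lengths were 1783 and 500 bp. The log2 fold changes of the 54 tested regions with their own hairpin ran from -0.34 to 0.26.

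The regions named for microRNAs were shorter and had fewer reads than the others. Their median length was 693 bp, against 1421 bp for the other 11099 regions, and 57 of them (37.5%, against 15.0%) had exactly 500 bp, the shortest length in the table. Their median level was 1.61 RPKM, against 3.10 RPKM, and 72 of them (47.4%, against 19.2%) had under 25 mean reads. A protein-coding start lay inside 51 of them (33.6%), against 72.2% of the other regions. Where it did, the medians were 3.62 RPKM and 153 reads for microRNA names and 3.54 RPKM and 137 reads for other names. In the 91 regions over neither a protein-coding nor a long non-coding start, some of which lie over the start of the microRNA itself, they were 1.17 RPKM and 13.8 reads, against 1.38 RPKM and 19.2 reads. The median ratio of observed to expected CpG, which is high in CpG islands, was 0.328, against 0.589 in the other regions. Over protein-coding starts it was 0.622, against 0.646. These are descriptions of how the regions lie and carry no test.

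**Figure D1:**
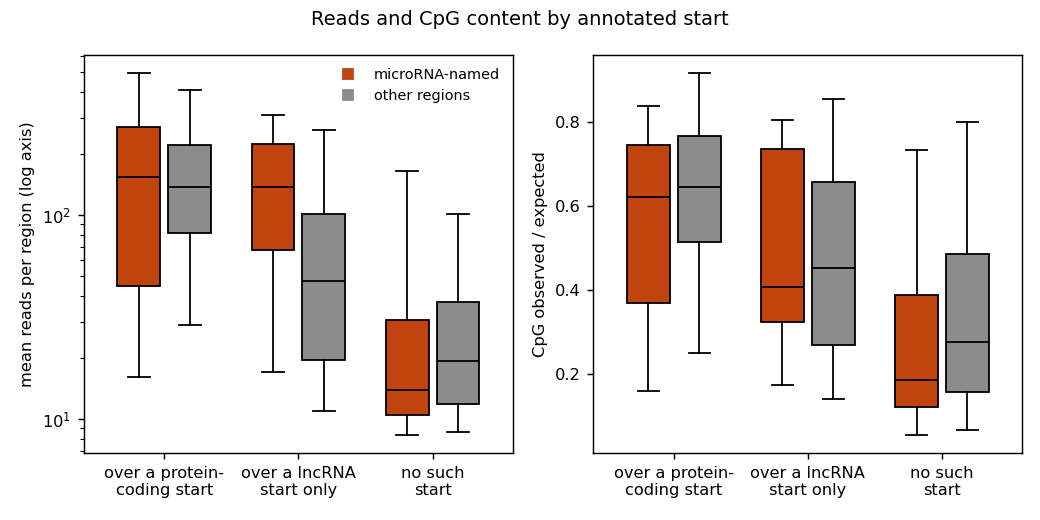
Mean reads per region on a log axis (left) and observed over expected CpG (right) for regions named for microRNAs, drawn left of the other regions in each of 3 classes of annotated start. Boxes give quartiles and medians, and whiskers the 5th to 95th percentile. The medians of both lie near each other over protein-coding starts (153 and 137 reads) and are lowest over neither kind of start (13.8 and 19.2 reads).

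The spread between libraries followed the reads. The median coefficient of variation of a microRNA region was 19.5% in butyrate and 18.1% in vehicle libraries, against 12.6% and 12.3% in the other regions. For those over a protein-coding start it was 9.21% and 10.3%.

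Among microRNAs of the gut epithelium, acetylation was high at the miR-192, miR-194 and miR-215 loci, at Mir200c and at Mir21a, and no difference between butyrate and vehicle passed the test. The list held 15 microRNA genes, of which 7 had a region of their name, and 8 hairpins lay inside regions. The test was limma on log2(RPKM + 1) over the 10529 regions with a mean RPKM of at least 1, with Benjamini-Hochberg adjustment over all of them. A fold change on this scale understates the change of weak regions, and ± after it gives the SE.

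The region of Mir194-1 (mm10, chr1:185311462-185314900), which also contains Mir215, covers the start of the long non-coding gene 2010103J01Rik within the gene Iars2. It had 8.09, 9.06 and 9.39 RPKM in butyrate libraries and 8.84, 9.35 and 9.06 RPKM in vehicle libraries. The groups overlapped, and the log2 fold change was -0.04 ± 0.07 (limma adjusted p = 0.93).

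The partner locus, Mir192 with Mir194-2, lies outside protein-coding genes (mm10, chr19:6262561-6267210). It had 5.37, 5.34 and 5.28 RPKM in butyrate libraries and 5.76, 5.64 and 4.96 RPKM in vehicle libraries. The butyrate libraries lay close together between the vehicle ones, with a log2 fold change of -0.03 ± 0.08 (95% interval -0.20 to 0.15). Each of the loci holds a miR-194 hairpin beside miR-192 or miR-215, which share a seed.

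Mir200c and Mir141, of the miR-200 family known for keeping epithelial character by repressing Zeb1 and Zeb2, shared a region near Phb2 (mm10, chr6:124717207-124719850). Its levels were 5.25, 5.68 and 5.56 RPKM in butyrate libraries and 5.28, 5.72 and 5.91 RPKM in vehicle libraries. The groups overlapped, and the log2 fold change was -0.03 ± 0.08.

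The other miR-200 cluster was represented only by a region of 500 bp named for Mir429, in Ttll10 and 518 bp from the hairpin (mm10, chr4:156052887-156053387). It had 4, 4 and 16 reads in butyrate libraries and 31, 10 and 9 reads in vehicle libraries. In RPKM these were 0.361, 0.447 and 1.42 with butyrate and 2.40, 1.12 and 0.871 with vehicle. 1 butyrate library lay above 2 of the vehicle libraries, and the log2 fold change was -0.50 ± 0.27 (limma adjusted p = 0.71, 95% interval -1.09 to 0.09). It was -0.24 without vehicle library S1 and -0.76 without butyrate library S6.

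Mir21a, a microRNA of many tissues whose hairpin lies at the end of Vmp1, had the region with most reads, 10161 bp long and covering a start of Vmp1 (mm10, chr11:86577918-86588079). Its levels were 4.06, 4.84 and 4.05 RPKM in butyrate libraries and 4.58, 4.76 and 4.27 RPKM in vehicle libraries. The highest single value was a butyrate library and the 2 lowest were as well, with a log2 fold change of -0.06 ± 0.10.

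Mir802, known in the intestine and the liver, lay in a region over the start of the long non-coding gene 1810044K17Rik (mm10, chr16:93367922-93369895). It had 3.52, 3.03 and 2.54 RPKM in butyrate libraries and 3.57, 3.95 and 3.29 RPKM in vehicle libraries. 1 butyrate library reached into the vehicle range, and the log2 fold change was -0.20 ± 0.12 (limma adjusted p = 0.73), or -0.11 without butyrate library S6. Mir147, a microRNA of the epithelium and of macrophages, had a weak region of 10.5 mean reads in AA467197 that stayed under the filter.

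**Figure D2:**
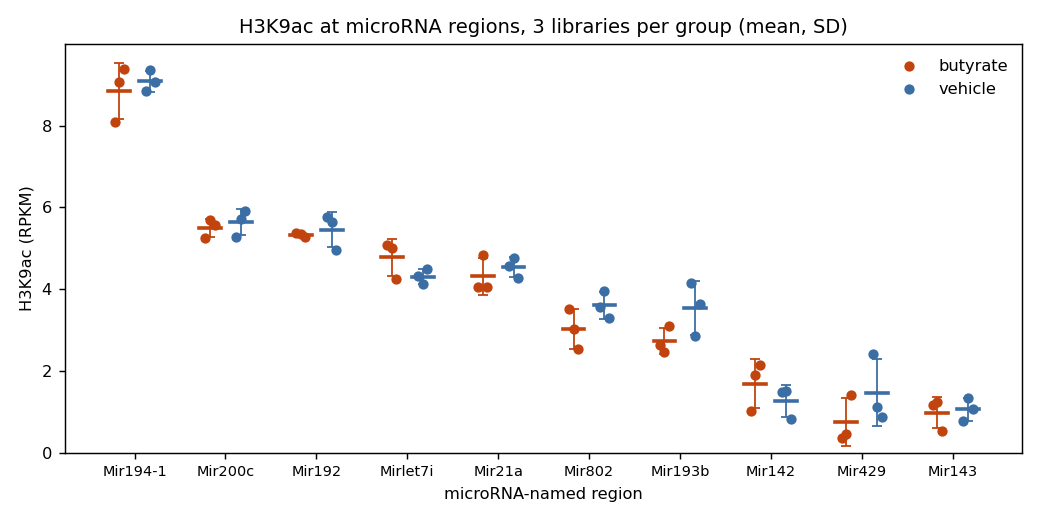
H3K9ac level in RPKM (linear axis from 0) at 10 regions named for microRNAs, with butyrate left of vehicle at each name. Points are the 3 libraries per group, bars are means and whiskers are 1 SD. The groups overlap at all names shown, and levels run from about 9 RPKM at Mir194-1 to about 1 RPKM at Mir143.

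The letters of the regions were searched for 4 motifs on both strands, over all 11251 regions. CAAAGTCCA of HNF4A occurred in 3 of the 152 microRNA regions (1.97%, against 2.63% of all regions) and TTTATGG of CDX factors in 24 (15.8% of both). GGAATGT of TEAD factors was found in 24 (15.8%, against 17.5%) and TATAAA in 55 (36.2%, against 44.0%). The regions were shorter than the others at the median, as given above, and such matches describe letters and show no binding.

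The let-7 family, which restrains growth and cell cycle genes, was represented by 4 regions of 3 of its 12 members. Only Mirlet7i had its hairpin inside a region (mm10, chr10:122984947-122986866), with a CpG ratio of 1.13 and no other annotated start. It had 5.07, 5.005 and 4.26 RPKM in butyrate libraries and 4.32, 4.12 and 4.49 RPKM in vehicle libraries. The groups overlapped, with a log2 fold change of 0.12 ± 0.09 (limma adjusted p = 0.79).

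The region of Mirlet7b, 638 bp from the hairpin, averaged 1.18 ± 0.56 RPKM with butyrate and 1.27 ± 0.11 RPKM with vehicle (SD, n = 3 each). Mirlet7g had a pair of regions on either side of its hairpin in Wdr82, a subunit of histone methyltransferase complexes. The one over an annotated Wdr82 transcript start averaged 1.10 ± 0.18 RPKM with butyrate and 1.08 ± 0.30 RPKM with vehicle (SD, n = 3 each).

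The 500 bp region downstream of Mirlet7g (mm10, chr9:106179554-106180054) was among the thinnest, with 7.17 mean reads. It had 1.26, 1.01 and 0.711 RPKM in butyrate libraries and 0.155, 0 and 0.967 RPKM in vehicle libraries. A single vehicle library lay in the butyrate range. Limma's voom on the reads gave a log2 fold change of 2.18 ± 0.58 (adjusted p = 0.079). It was 1.29 (adjusted p = 0.59) without vehicle library S2, which had 0 reads, and 3.28 (adjusted p = 0.0064) without vehicle library S3, the one in that range. Leaving out each of the other libraries gave 1.98 to 2.42 with adjusted p-values of 0.11 to 0.32. In the authors' deposited table the FDR of this region was 0.506.

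Widely expressed clusters had regions under 4 names for 38 genes, beside 123 matched names for the 1228 microRNA genes in RefSeq. Mir22, whose hairpin sits in the transcript of Mir22hg, had 1.61 ± 0.48 RPKM with butyrate and 1.54 ± 0.17 RPKM with vehicle (SD, n = 3 each). The promoter of that transcript, Mir22hg, shared with Tlcd2, had 6.19 ± 0.39 RPKM with butyrate and 5.72 ± 0.47 RPKM with vehicle (SD, n = 3 each), a log2 fold change of 0.10 ± 0.08. The other regions in the list were Mir29b-2, with 0.13 ± 0.20, Mir181a-1, at -66447 bp from its microRNA, with -0.13 ± 0.16, and Mir181a-2, described below. None of 19 genes in cell cycle clusters (among them the clusters of miR-17 and miR-106b) had a region of its name or a hairpin inside one.

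Among microRNAs of other cell types, 1 of 7 leukocyte genes and 1 of 7 mesenchymal genes had a region of its name. Over all microRNAs, 123 names matched RefSeq, which lists 1228 microRNA genes. Mir142, of leukocytes, had 1.02, 1.90 and 2.15 RPKM in butyrate libraries and 1.49, 1.51 and 0.824 RPKM in vehicle libraries, from 22 mean reads. Mir143, of smooth muscle and fibroblasts, had 1.17, 1.23 and 0.533 RPKM in butyrate libraries and 0.775, 1.34 and 1.06 RPKM in vehicle libraries, from 10.5 mean reads. The groups overlapped at both, and neither region contained the hairpin. No region carried the name of any of the 2 endothelial, 8 muscle and 6 neural genes or of the 1 liver gene in the lists.

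Of the 6 regions with the highest levels, 3 covered both a protein-coding start and their own hairpin, those of Mir1893, Mir5620 and Mir8104. Mir1893, at Epc1, a subunit of the NuA4 histone acetyltransferase complex, had 10.0, 9.63 and 9.60 RPKM in butyrate libraries and 9.36, 8.01 and 9.10 RPKM in vehicle libraries. Every butyrate library lay above every vehicle library there, with a log2 fold change of 0.13 ± 0.07 (limma adjusted p = 0.71). After Mir194-1 followed Mir5620, at the chloride and proton exchanger gene Clcn4. It had 8.34, 7.95 and 7.50 RPKM in butyrate libraries and 6.41, 7.98 and 6.92 RPKM in vehicle libraries, and the groups overlapped. Mir1932, near Rnf213, averaged 6.53 ± 0.32 RPKM with butyrate and 5.91 ± 0.61 RPKM with vehicle (SD, n = 3 each). Mir8104, at the phosphatase gene Ppm1h, averaged 5.85 ± 0.34 RPKM with butyrate and 5.59 ± 0.41 RPKM with vehicle (SD, n = 3 each). Mir22hg, above, completed the 6 highest.

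Across all microRNA regions the comparison of butyrate with vehicle gave no call by the test. Of the 152 regions 121 were tested and 31 had a mean RPKM under 1. Limma called 0 of the 121 at an adjusted p of 0.05, and 0% of all 10529 tested regions. An unadjusted p under 0.05 was found at 8 (6.61%), against a background of 7.27%. Of these 1 was higher (background 3.35%) and 7 were lower (background 3.91%) with butyrate. The median log2 fold change was 0.01, against 0.00 over all tested regions, with an SD of 0.20, against 0.17. 62 regions lay above 0 and 59 below. The median half-width of the 95% interval was 0.32, against 0.26 over all regions, and 4 regions (3.31%, background 0.313%) differed by over 1.5-fold on this scale, with 10.7 to 25.3 mean reads. In 9 of the 152 regions every butyrate library lay above every vehicle library (background 6.83%), and in 15 every butyrate library lay below (background 7.35%). Among the 121 tested regions these counts were 5 (background 6.11%) and 10 (background 6.85%). Voom on all regions called 0 of 152 (background 0.142%), and 21 had an unadjusted p under 0.05 (13.8%, background 9.49%). With only regions from 25 mean reads on, voom called 0 of 80 (background 0.0995%).

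**Figure D3:**
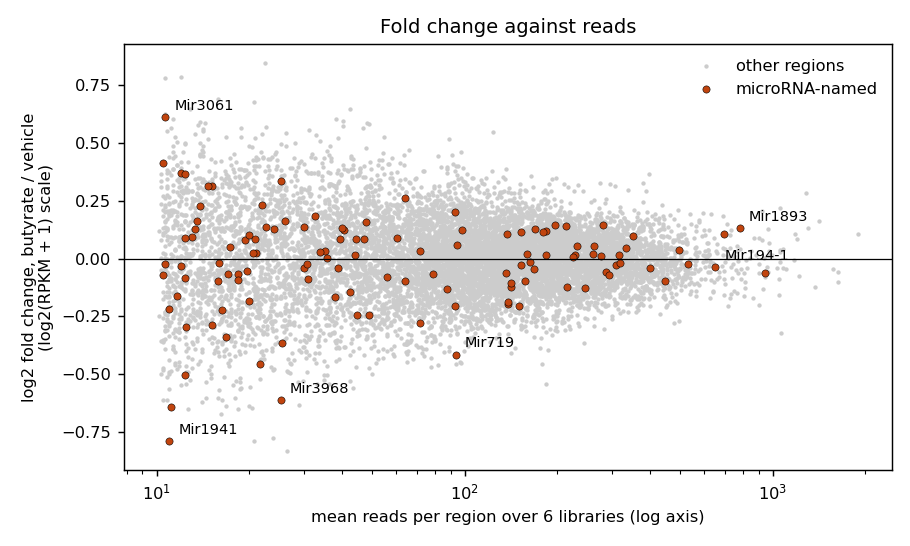
The log2 fold change, butyrate over vehicle, on the log2(RPKM + 1) scale against mean reads per region (log axis) for the 121 tested microRNA regions (filled) and the other tested regions (grey). Fold changes of microRNA regions spread from -0.79 to 0.61 at low reads and stay between -0.20 and 0.14 from 100 reads on.

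By class of start, 31 of 49 tested regions over a protein-coding start lay above 0 and 18 below, against 4027 above and 3939 below of the 7966 other regions of that class. Of the 9 tested regions over a long non-coding start only, 8 lay below 0, against 118 of the 209 other regions of that class, with a median of -0.06 against -0.03. The 8 were Mir135a-1, Mir181a-1, Mir193a, Mir194-1, Mir200c, Mir760, Mir7655 and Mir802, and none had an unadjusted p under 0.05. With 100 reads or more, the 43 regions had fold changes between -0.20 and 0.14 and 0 had an unadjusted p under 0.05, against 288 of the 5488 other regions at that depth.

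The authors' deposited table called 3 of the 152 regions at their FDR threshold of 0.1 (background 0.249%), 2 higher (background 0.0978%) and 1 lower (background 0.151%) with butyrate. All 3 were among the 72 regions with under 25 mean reads, in which that table's background was 0.454%. Limma's voom on the recovered reads called none of them at 0.05. Its adjusted p was 0.097 at Mir5119 and at Mir181a-2, under the authors' threshold of 0.1, and 0.16 at Mir1941.

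Mir5119 had its region over an annotated transcript start of Cdk12 (mm10, chr11:98262591-98263724), a kinase of RNA polymerase II elongation, and its hairpin lay inside. Whether that start is the main promoter of Cdk12 was not tested. The region held 23, 24 and 24 reads in butyrate libraries and 10, 8 and 6 reads in vehicle libraries. In RPKM the levels were 0.915, 1.18 and 0.941 with butyrate and 0.342, 0.396 and 0.256 with vehicle. Every butyrate library lay well above every vehicle library. The authors' deposited table gave a log2 fold change of 1.59 with an FDR of 0.0176. Voom gave 1.56 ± 0.43 (adjusted p = 0.097), and the region was under the filter of the main test. The other regions named for Mir5119 did not show this: one 500 bp long averaged 1.06 ± 0.45 RPKM with butyrate and 0.756 ± 0.33 RPKM with vehicle (SD, n = 3 each). The third, 32037 bp downstream, averaged 2.54 ± 0.63 RPKM with butyrate and 2.51 ± 0.23 RPKM with vehicle (SD, n = 3 each).

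Mir181a-2, whose mature form is shared with Mir181a-1, had a 500 bp region inside the nuclear receptor gene Nr6a1, 389 bp from the hairpin (mm10, chr2:38851846-38852346). It held 9, 18 and 9 reads in butyrate libraries and 3, 2 and 2 reads in vehicle libraries. The groups did not overlap, and 1 butyrate library had more reads than the other butyrate libraries. The authors' deposited table gave a log2 fold change of 2.37 with an FDR of 0.0903. Voom gave 2.06 ± 0.57 (adjusted p = 0.097), and the level was again under the filter.

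Mir1941 had a 500 bp region within Krt80, a keratin gene, 2759 bp from the hairpin (mm10, chr15:101366093-101366593). It held 3, 5 and 7 reads in butyrate libraries and 24, 13 and 14 reads in vehicle libraries. In RPKM the levels were 0.270, 0.558 and 0.622 with butyrate and 1.86, 1.46 and 1.35 with vehicle. All butyrate libraries lay below all vehicle libraries. The authors' deposited table gave a log2 fold change of -1.69 with an FDR of 0.0904. Limma on log2(RPKM + 1) gave -0.79 ± 0.20 (unadjusted p = 0.0018, adjusted p = 0.49), and voom -1.69 ± 0.52 (adjusted p = 0.16).

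**Figure D4:**
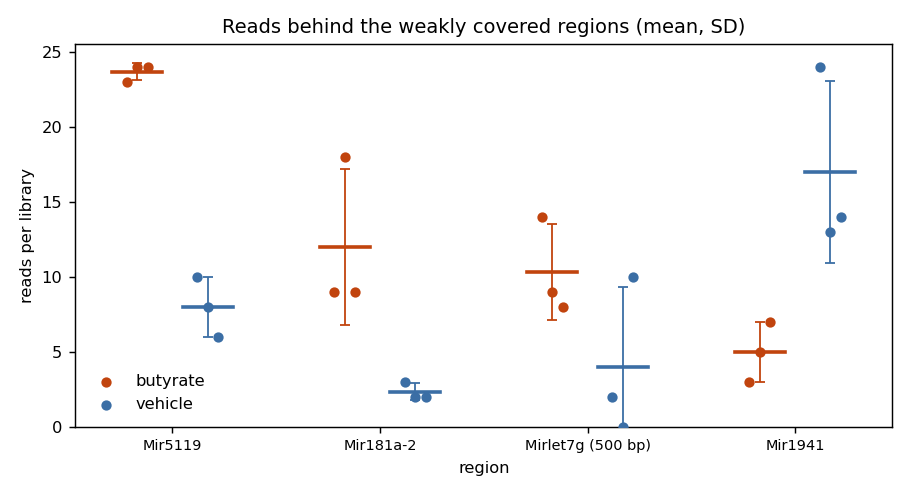
Reads per library (linear axis from 0) in 4 weakly covered regions, with butyrate left of vehicle. Points are libraries, bars are means and whiskers are 1 SD, n = 3 per group. The butyrate libraries lie above all vehicle libraries at Mir5119 and Mir181a-2 and below all at Mir1941, while at the 500 bp region of Mirlet7g 1 vehicle library with 10 reads lies among the butyrate libraries.

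Among the tested regions the smallest p was that of Mir719. Its region covered an annotated transcript start of Atp8a2, a phospholipid flippase gene, 51159 bp from the microRNA (mm10, chr14:60177109-60178403). It had 2.93, 2.76 and 2.64 RPKM in butyrate libraries and 4.10, 4.03 and 3.96 RPKM in vehicle libraries, from 93.5 mean reads. All butyrate libraries lay below all vehicle libraries. The log2 fold change was -0.41 ± 0.10 (limma unadjusted p = 9.3e-04, adjusted p = 0.49), and it lay between -0.54 and -0.39 under every alternative run. The authors' deposited table gave an FDR of 0.113. A second region of the same name, 49592 bp from the microRNA, averaged 1.43 ± 0.79 RPKM with butyrate and 1.25 ± 0.45 RPKM with vehicle (SD, n = 3 each).

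The next smallest p-values on the lower side after Mir1941 belonged to short regions. Mir3968, in Trim80, had 1.80, 1.12 and 2.13 RPKM in butyrate libraries and 2.40, 2.91 and 3.97 RPKM in vehicle libraries, with -0.61 ± 0.17. Mir3075, in Zmiz1, a coactivator gene, had 0.631, 0.782 and 0.444 RPKM in butyrate libraries and 1.01, 1.79 and 1.84 RPKM in vehicle libraries, with -0.64 ± 0.21. In both the groups did not overlap. Mir7069, in Farsa, the alpha subunit of phenylalanine tRNA synthetase, had -0.45 ± 0.19, and its groups did not overlap either. Mir8109, in Neto2, had -0.37 ± 0.16 with overlapping groups, or -0.23 without butyrate library S6. The remaining region with an unadjusted p under 0.05, Mir193b, was named after its values were seen. It had 2.63, 2.47 and 3.09 RPKM in butyrate libraries and 4.15, 2.84 and 3.64 RPKM in vehicle libraries, with -0.28 ± 0.13.

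On the higher side Mir3061, in Ppp2ca, the catalytic subunit of phosphatase 2A, had the smallest p. It had 1.53, 1.45 and 1.33 RPKM in butyrate libraries and 0.388, 1.12 and 0.387 RPKM in vehicle libraries. The groups did not overlap, and the log2 fold change was 0.61 ± 0.22 (limma unadjusted p = 0.014, adjusted p = 0.59). The others named on this side had an unadjusted p above 0.05. They were Mir6928 in Atp6v0a1 (0.41 ± 0.22), Mir12179 (0.34 ± 0.18), Mir7686 (0.32 ± 0.18), Mir5132 over the start of Irak1 (0.26 ± 0.15) and Mir1893 (0.13 ± 0.07). Without 1 library these values moved by over 1.5 times, except at Mir6928. They were 0.20 at Mir12179 (without S3), 0.19 at Mir7686 (without S5), 0.15, 0.16 and 0.43 at Mir5132 (without S2, S5 or S6) and 0.07 at Mir1893 (without S2).

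**Figure D5:**
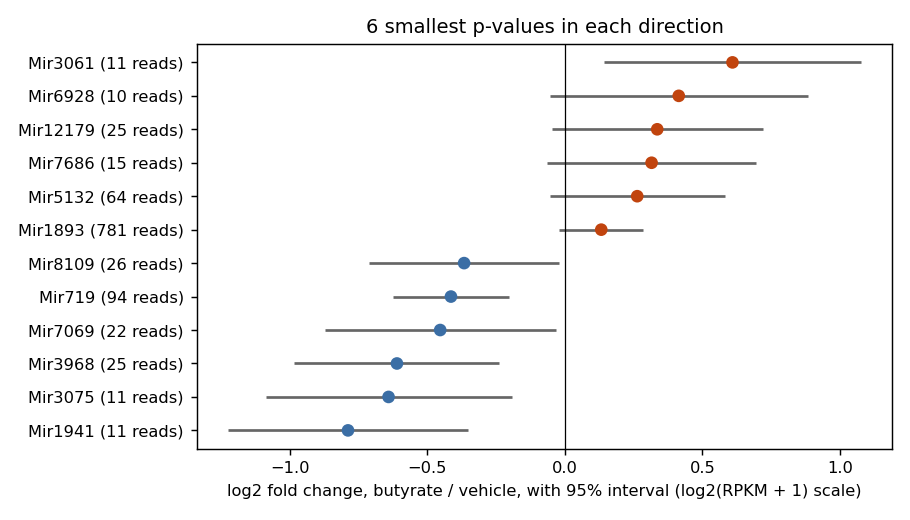
Log2 fold change, butyrate over vehicle, with 95% intervals on the log2(RPKM + 1) scale, for the microRNA regions with the 6 smallest p-values higher and the 6 lower with butyrate. Orange points are higher and blue points lower with butyrate, and mean reads stand beside each name. All intervals on the lower side and that of Mir3061 on the higher side exclude 0 before adjustment, and none passed the adjusted test.

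Some names had several regions. Of the 136 names 124 had 1 region and 12 had more, up to 4 at Mir704. There the region levels averaged 1.53 ± 0.33, 1.98 ± 0.69, 1.41 ± 0.71 and 1.12 ± 0.92 RPKM with butyrate (SD, n = 3 each). With vehicle they averaged 1.33 ± 0.38, 2.10 ± 0.15, 0.828 ± 0.22 and 0.530 ± 0.50 RPKM in the same order of regions. The order is by position: the first pair lay 22467 and 15013 bp from the microRNA and the last pair in Pdia4, within 1 kb of it. In each the difference between the groups was smaller than the larger of the SDs. At Mir5128 one region covered the start of Strbp, at -14807 bp from the microRNA, with 3.96 ± 0.61 RPKM with butyrate and 4.19 ± 0.13 RPKM with vehicle (SD, n = 3 each), while the other regions of that name had 11.8 and 8.33 mean reads and stayed under the filter. The one at chr2:37682109-37682741 averaged 1.09 ± 0.27 RPKM with butyrate and 0.687 ± 0.35 RPKM with vehicle (SD, n = 3 each), and its groups overlapped. The one at chr2:37689209-37689709 averaged 0.463 ± 0.25 RPKM with butyrate and 1.11 ± 0.16 RPKM with vehicle (SD, n = 3 each), without overlap. Differences between regions of 1 name were not tested.

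No gene that makes or uses microRNAs passed the test. Of 43 biogenesis and effector genes 34 had a region within 5 kb and all 34 were tested, of which 20 lay above and 14 below 0 with a median log2 fold change of 0.02. Limma called 0 (background 0%), voom called 0 (background 0.142%), and 1 of the 34 had an unadjusted p under 0.05 by limma (background 7.27%). Their summed level was 139 to 142 RPKM in butyrate libraries and 138 to 141 RPKM in vehicle libraries. No region was named for Drosha, the nuclear hairpin nuclease, or for Xpo5, the export receptor of the cut hairpin.

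Ran, the GTPase that drives this export, was the lowest p of the list, with 3.46, 3.75 and 2.56 RPKM in butyrate libraries and 4.65, 5.47 and 4.10 RPKM in vehicle libraries. The groups did not overlap, and the log2 fold change was -0.44 ± 0.13 (limma unadjusted p = 0.0043, adjusted p = 0.57). Adar, which edits double-stranded RNA, had -0.24 ± 0.11 and Tarbp2, a partner of Dicer1, had -0.25 ± 0.19.

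Dicer1, which cuts the hairpin to its mature length, had 6.21, 6.31 and 5.77 RPKM in butyrate libraries and 5.52, 5.70 and 5.66 RPKM in vehicle libraries, without overlap and with 0.10 ± 0.08 (limma adjusted p = 0.79). Tnrc6c, a scaffold of silencing, had 0.10 ± 0.08 and the deadenylase subunit gene Pan3 had 0.08 ± 0.07. Dgcr8, the partner of Drosha, had 0.17 ± 0.18 from 25.2 mean reads. The Argonaute genes had -0.03 ± 0.09 (Ago1), -0.02 ± 0.11 (Ago2), 0.09 ± 0.10 (Ago3) and 0.05 ± 0.11 (Ago4).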

How the data were processed

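Chromatin of ileal epithelial cells was precipitated with an H3K9ac antibody and sequenced as paired 100 bp reads, per the labels' protocols. STAR, Picard, HOMER and edgeR, with the build mm10, are listed in the submitters' processing notes without version or role, and how regions were called is not given in the sources used here. Per the file headers, the authors deposited 1 table of 11251 regions with RPKM per library, group means in RPKM and CPM, and their log2 fold change, log2 CPM, p-value and FDR for butyrate over vehicle. Its columns name the group (S4 to S6 butyrate, S1 to S3 vehicle) and not the sample. RPKM times region length gave whole reads for 100% of values in each library (tolerance 0.01 reads).

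Limma 3.58.1 (R 4.3.3) was fitted on log2(RPKM + 1), using robust empirical Bayes and a trend of variance with level, on the 10529 regions with a mean RPKM of at least 1 (722 left out), with Benjamini-Hochberg adjustment over all of them at 0.05. Voom on the recovered reads, scaling, filter, pseudocount and leaving out each library were alternatives. The main fit and voom on regions of at least 25 mean reads were tested on simulated data, and the other fits were not. Sequences and hairpin positions came from RefSeq (GRCm38.p6, the same assembly as mm10), and the starts of all transcripts from GENCODE M21. Python 3.11.15, pandas 2.3.3 and pysam 0.24.0 were used. Regions named in the text were those called by any fit or by the authors, the 6 smallest p-values in each direction, the 6 highest levels, those over their own hairpin and those of the microRNA lists. The members and lists were chosen with earlier results of these data known. Of 50 gene names planned for the biogenesis list, 7 were older names of listed genes, which left 43. Results for a further motif and a further region are not reported here.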

Additional observations from a re-analysis of the deposited data

How the results depend on the processing

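No paired analysis was possible because the table's columns carry library numbers S1 to S6 and not the replicate numbers of the labels. The count of all regions called, 0, rose to 16 by voom on all regions and to 9 by voom on regions of at least 25 mean reads. The count of microRNA regions called was 0 under every alternative run, and so was that of biogenesis genes. The count of microRNA regions with an unadjusted p under 0.05 that were higher with butyrate, 1 in the main test, was 5 without a filter, 0 at a mean RPKM of at least 2, 7 by voom on all regions and 2 by voom at 25 reads, and 1 to 4 without 1 library (4 without S2, 3 without S6 and 2 without S1, S3 or S5). The count lower with butyrate, 7 in the main test, was 11, 4, 14 and 3 under the same settings in that order, and 4 to 9 without 1 library (4 without S1). The median log2 fold change, 0.0054, lay between -0.0143 and 0.0219.

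Single regions were compared between settings for 34 of those named, chosen by calls, smallest p-values, highest levels and the microRNA lists. Other named regions, such as those named only for holding their own hairpin, were not compared singly. Of 427 alternative values of the 34 regions, 12 lay on the other side of 0. They fell in 8 regions whose main log2 fold change was at most 0.13 in size, and the cause was not tested. All 12 values came from leaving out 1 library. Over the 6 such fits the value ran from -0.17 to 0.10 at Mir143 (0.027 without S2 and 0.10 without S6), from -0.48 to 0.37 at Mir147 by voom (0.35 without S3 and 0.37 without S6), and from -0.081 to 0.0092 at Mir192 (above 0 without S1). It ran from -0.076 to 0.021 at Mir194-1 (above 0 without S4), from -0.12 to 0.14 at Mir22 (-0.031 without S1 and -0.12 without S4), and from -0.049 to 0.29 at Mir29b-2 (below 0 without S1). It ran from -0.29 to 0.080 at Mirlet7b (above 0 without S6) and from -0.067 to 0.13 at the Mirlet7g region over Wdr82 (-0.067 without S1 and -0.048 without S4). Voom without 1 library was run for 5 named regions that the authors called or the filter left out (Mir147, Mir181a-2, Mir1941, Mir5119 and the 500 bp region of Mirlet7g), and not for the others under the filter. It called that of Mirlet7g without S3 (3.28) and none in the other fits, with 1.29 (adjusted p = 0.59) for Mirlet7g without S2. That alternative was chosen after seeing the data. Among uncalled fold changes, values also moved by over 1.5 times without 1 library at further regions, beside those in the report and those near 0. These were Mir142 (0.08 without S3, 0.11 without S6 and 0.43 without S4), Mirlet7i (0.19 without S6) and Mir1932 (0.05 without S2). Mir22hg was another (0.04 without S3 and 0.05 without S6). They also included Mir5620 (0.14 in the main test, 0.08 without S1 and 0.22 without S2) and Mir181a-1 (-0.08 without S3). Depth limits the 72 regions with under 25 mean reads most: the 41 of them that were tested had a median 95% interval half-width of 0.45, against 0.21 from 100 reads on.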

Other observations

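Some microRNA-named regions outside the lists and rules above were picked after their values were seen, so the choice may have followed those values. The region named for Mir203b contained the hairpin of Mir203, a microRNA known from skin epithelium, and had 399 mean reads. Its levels were 4.26, 4.71 and 4.80 RPKM in butyrate libraries and 4.59, 4.75 and 4.90 RPKM in vehicle libraries. The groups overlapped, with a log2 fold change of -0.04 ± 0.09. Mir7045 lay in the promoter of Chd4, an ATPase of the NuRD complex that also holds histone deacetylases. It averaged 5.39 ± 0.35 RPKM with butyrate and 5.68 ± 0.69 RPKM with vehicle (SD, n = 3 each).

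Mir378a, whose hairpin is in Ppargc1b, a coactivator of mitochondrial genes, had 4.39, 3.95 and 3.23 RPKM in butyrate libraries and 4.48, 4.82 and 4.44 RPKM in vehicle libraries. The groups did not overlap, and the log2 fold change was -0.21 ± 0.11 (limma unadjusted p = 0.072). Mir7015, in Smap2, held 5, 2 and 1 reads in butyrate libraries and 9, 9 and 15 reads in vehicle libraries. It was under the filter of the main test, and voom gave -1.96 with an adjusted p of 0.15.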
